A study of Mus musculus with 32 samples.

Results

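H3K27ac, the acetylation of lysine 27 on histone H3, was compared between B3 cells that had received 4-hydroxytamoxifen (4-OHT) for 1 h and untreated cells (0 h). Chromatin immunoprecipitation followed by sequencing (ChIP-seq) gave 2 libraries at each time, and each library has its own list of called peaks. The 4 lists merged into 29888 regions. A region was named gained when both 1 h libraries and neither 0 h library had a peak in it, lost in the reverse case, and kept when all 4 libraries had a peak. By these rules 891 regions were gained, 910 were lost and 16076 were kept.

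B3 is a mouse pre-B cell line. All groups used here carried the same retroviral construct, Ikaros with an HA tag joined to the ERt2 ligand-binding domain (HA-Ikaros-ERt2). The 1 h group received 500 nM 4-OHT for 1 h, and the 0 h group received none. Ikaros was driven by a transduced construct in a cultured line, so the groups model entry of an added Ikaros protein into the nucleus and not its normal onset in B-cell development. H3K27ac libraries from cells fixed 30 min and 2 h after 4-OHT, HA-Ikaros libraries of 0 h and 1 h, and CHD4 libraries of 1 h served as further readouts, and 4 of the 32 libraries of the series carry the comparison itself.

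Ikaros (IKZF1) is a zinc finger DNA-binding protein that binds sites built around the letters GGGAA, works with the NuRD complex, whose CHD4 subunit remodels nucleosomes and whose HDAC1 and HDAC2 subunits remove acetyl groups, and is a tumour suppressor of B-cell leukaemia. In pre-B cells it is known to repress the surrogate light chain genes Igll1 and Vpreb1 and the cell cycle gene Myc. H3K27ac is laid down by EP300 and CREBBP at active promoters and enhancers, and its loss accompanies enhancer silencing. The ERt2 domain is used to hold a fused protein outside the nucleus until 4-OHT is bound. The 0 h to 1 h step thus asks how the acetylated regions stood soon after Ikaros was let in. HA-Ikaros peaks were already called at 0 h, however (7822 and 9527, against 12447 and 14874 at 1 h), and their source was not tested. Ikaros at 0 h below means such a peak.

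The DNA under a few of the regions is given before their values, because the results turn on where Ikaros peaks lay. Each line is 201 bases of the plus strand of GRCm38.p6, read around a peak summit (the highest point of a peak), with GGGAA or its reverse complement TTCCC in capitals. The lost regions nearest to Asic4 and Gpt2 were the only 2 of the 10 strongest lost regions with an Ikaros peak in both 1 h lists, and their windows centre on the Ikaros summit of replicate 1 at chr1:75447646-75447846 and chr8:85492520-85492720. The Asic4 window held 4 copies of the core word and the Gpt2 window held 0.
Asic4: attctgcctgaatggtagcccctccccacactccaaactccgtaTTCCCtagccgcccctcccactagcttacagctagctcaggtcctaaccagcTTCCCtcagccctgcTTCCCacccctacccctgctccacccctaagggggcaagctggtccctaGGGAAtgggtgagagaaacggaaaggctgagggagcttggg
Gpt2: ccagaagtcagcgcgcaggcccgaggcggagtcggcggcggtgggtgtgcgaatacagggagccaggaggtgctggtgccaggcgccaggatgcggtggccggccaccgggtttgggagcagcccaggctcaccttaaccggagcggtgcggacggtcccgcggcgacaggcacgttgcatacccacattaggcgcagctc
Of the kept regions, the one nearest to Tgfb2 and the Rac2 promoter had lower H3K27ac ranks at 1 h, and both held Ikaros peaks at both times. Their windows, chr1:186407757-186407957 and chr15:78564046-78564246, each held 1 core word.
Tgfb2: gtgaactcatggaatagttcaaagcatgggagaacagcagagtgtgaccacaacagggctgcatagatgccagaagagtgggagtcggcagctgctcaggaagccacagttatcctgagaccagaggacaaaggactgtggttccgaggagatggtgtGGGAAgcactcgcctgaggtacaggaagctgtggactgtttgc
Rac2: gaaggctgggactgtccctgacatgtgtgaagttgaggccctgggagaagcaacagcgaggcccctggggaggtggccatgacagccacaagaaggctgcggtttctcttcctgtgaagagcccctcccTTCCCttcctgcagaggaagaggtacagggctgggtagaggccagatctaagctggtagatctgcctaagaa
The 2 strongest gained regions, near Psme4 and Dyrk1a, had no Ikaros peak in the lists of 0 h and 1 h, so their windows centre on the H3K27ac summit of 1 h replicate 1, at chr11:30782127-30782327 and chr16:94698786-94698986. The Psme4 window held 0 core words, whereas the Dyrk1a window held 7, in a tandem repeat of units that begin ctgtggtag or ctgtggtaa.
Psme4: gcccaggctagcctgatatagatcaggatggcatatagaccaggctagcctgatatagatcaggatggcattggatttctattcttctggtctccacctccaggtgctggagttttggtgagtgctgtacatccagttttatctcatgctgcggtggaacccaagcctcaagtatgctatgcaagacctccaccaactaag
Dyrk1a: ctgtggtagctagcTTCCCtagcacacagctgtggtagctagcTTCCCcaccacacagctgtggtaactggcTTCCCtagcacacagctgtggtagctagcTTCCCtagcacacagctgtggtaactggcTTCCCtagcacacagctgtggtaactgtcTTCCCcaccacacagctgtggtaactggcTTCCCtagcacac

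The H3K27ac lists held 25095 and 21468 peaks at 0 h and 27214 and 23701 at 1 h, a mean of 23281.5 ± 2565 (SD, n = 2) against 25457.5 ± 2484 (SD, n = 2), and the difference of 2176 peaks gave p = 0.667 in an exact two-sided permutation test. With 1 library left out the difference ranged from 362.5 to 3990 peaks, and at a −log10 q of at least 3 it was 720. With 2 libraries against 2, the smallest p an exact permutation test can give is 0.3333. The sources used here do not say whether the replicates came from separate cultures, so p-values measure the spread between libraries only. Depth recovered from the lists was 4.25 and 4.30 fragments per base at 0 h and 4.34 and 3.75 at 1 h, and the weakest peaks held between 13 and 15 fragments. The median fold enrichment of a peak over its local background was 7.5 and 7.71 at 0 h and 6.02 and 5.45 at 1 h, so both 1 h values lay below both 0 h values. For this reason each fold was turned into a percentile rank (0 to 100) among the peaks of its own list before regions were compared. Of 14 genes that mark pre-B cells, 13 had a peak at the promoter in all 4 libraries (Cd79a, Pax5 and Ebf1 among them), and Rag1 did not. Of 18 genes that mark other lineages 2 did, Hbb-bt and Pecam1. In such bulk samples, fewer cells with a mark and less mark per cell cannot be told apart.

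Gained and lost regions were a small part of the whole. Gained regions made up 2.98% of all regions and lost regions 3.04%, and the kept regions made up 53.8%. The 2 counts were less close under other settings, with 491 gained and 1100 lost regions in lists cut to equal length and 557 and 827 at a −log10 q of at least 3. A further 8383 regions (28.0%) were called in 1 library only. Exactly 1 of the 2 replicates called 8335 regions at 1 h (27.9%) and 4972 at 0 h (16.6%), so disagreement between replicates was more frequent than the gained or lost pattern. When the libraries were set against each other by replicate number instead of by time, 768 regions were called in both replicate 1 and neither replicate 2 libraries and 83 in the reverse case, and the crossed pairs gave 223 and 222. The 891 and 910 regions were thus more than any other pair pattern gave, but the 768 of replicate 1 came close. A region with no peak call is not a region without acetylation, since it may lie just below the threshold of the peak caller.

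**Figure D1:**
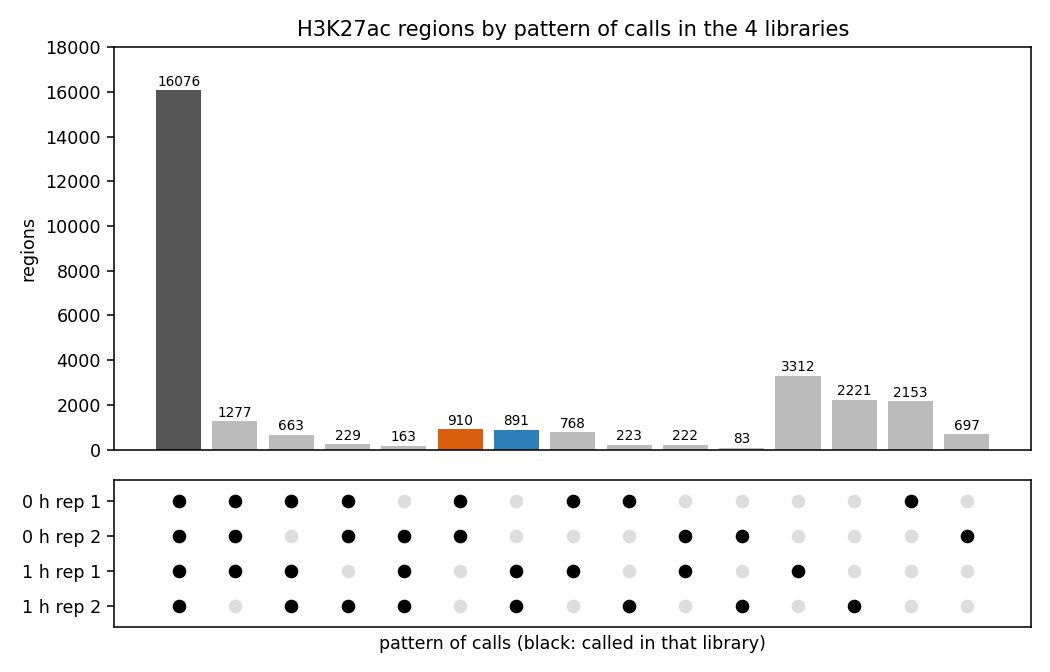
Number of H3K27ac regions (vertical axis) for each of the 15 patterns of calls over the 4 libraries, where a black dot marks a library that called the region. The 16076 kept regions are the tallest bar, the 910 lost (orange) and 891 gained (blue) regions stand beside the 768 regions called in both replicate 1 libraries only.

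Gained and lost regions were narrow, weak and mostly away from promoters. Their median width was 630 bp for gained and 672.5 bp for lost regions, compared with 2176 bp for kept regions. The median fragment count at the summit was 21 and 19 in the 1 h libraries for gained regions and 23 and 23 in the 0 h libraries for lost regions. Fragments could not be recovered for the strongest peaks, many of them in kept regions, so kept regions are compared by fold. The median fold enrichment at 1 h was 3.57 and 3.58 for gained and 10.4 and 7.51 for kept regions, and at 0 h it was 4.23 and 3.89 for lost and 11.9 and 9.96 for kept regions. The median rank of gained regions was 20.7 and 21.3 in the 1 h lists, with the highest at 75.9 and 73.6. Lost regions had median ranks of 25.1 and 17.2 in the 0 h lists, with the highest at 71.5 and 60.2.

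A promoter region lay within 1 kb of an annotated transcription start site (TSS) and a distal region farther away. Promoters made up 140 of the 891 gained regions (15.7%, exact 95% binomial interval 13.4 to 18.3), 188 of the 910 lost regions (20.7%, 18.1 to 23.4) and 9838 of the kept regions (61.2%). These intervals, and those given later, cover counting error only. Gained regions lay closer to kept regions than lost regions did. Of the gained regions 532 (59.7%) had a kept region within 5 kb, compared with 311 lost regions (34.2%), and the median gap was 3001 bp for gained and 12530 bp for lost regions.

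The H3K27ac libraries of 30 min and 2 h, which the rule did not use, called a larger share of the gained than of the lost regions at 2 h. The 2 libraries of 2 h called 79.9% and 61.3% of the gained regions, but 23.7% and 17% of the lost regions. Over all regions they called 75% and 67.6%. When 1 h replicate 1 was left out of the rule, the mean shares at 2 h lay close, at 47.7% of the gained and 43.7% of the lost regions. At 30 min the libraries called 70.6% and 48.0% of the gained and 70.7% and 39.5% of the lost regions, so replicate 1 did not separate the classes. Over all regions they called 80.1% and 69.3%, so both classes lay below the general share at 30 min. The 2 h lists held 33664 and 25141 peaks and the 30 min lists 29408 and 23214, and the part of list length in these shares was not tested.

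**Figure D2:**
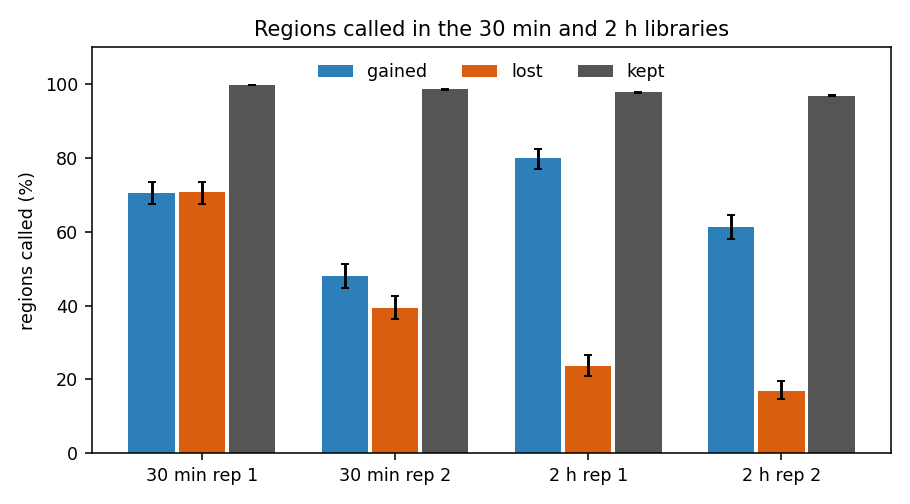
Share of gained, lost and kept regions (percent, vertical axis) with a peak in each H3K27ac library of 30 min and 2 h, which did not define the classes, with exact 95% binomial intervals as bars. At 2 h the gained regions stand at 79.9% and 61.3% and the lost regions at 23.7% and 17%, while at 30 min replicate 1 both stand near 70%.

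The 10 gained regions with the highest mean rank lay nearest to Psme4, Dyrk1a, Galnt2, Mdm1, Isoc2b, Kat14, Msh6, Herpud2, Sin3a and Rpia, where the nearest protein-coding TSS gives the name. The strongest, in an intron of Psme4 (a proteasome activator gene) at chr11:30781401-30782768, had no peak at 0 h and ranked 75.9 and 60.5 at 1 h and 90.2 and 67.1 at 2 h. Between genes, 29167 bp from the TSS of the protein kinase gene Dyrk1a, a region ranked 70.7 and 57.2 at 1 h, and its summit held 60 and 31 fragments. At Sin3a, which encodes the scaffold of a histone deacetylase complex, a gained region overlapped a TSS and ranked 50.8 and 55.8 at 1 h. An intron of Msh6 (DNA mismatch repair) ranked 56.9 and 58.6. An intronic region 3439 bp from the TSS of Kat14, a subunit of an acetyltransferase complex, ranked 60.2 and 57.2. It had Gm11701 at its centre and counts as a promoter region, since another annotated TSS lay within 1 kb. All 10 regions were called in both 2 h libraries, and 8 of the 10 in both 30 min libraries. None of the 10 had a peak in any of the 4 Ikaros lists of 0 h and 1 h.

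The 10 strongest lost regions included those nearest to Asic4, Chchd6, Kcnj12, Ifitm3, Gpt2, Acta1, Mvb12b and Jph3. The region 2652 bp from the TSS of Asic4 (an ion channel gene), at chr1:75446008-75447784, ranked 71.5 and 60.2 at 0 h, 34.8 and 27.3 at 30 min, and was called at 2 h by replicate 2 only, at 21.6. Ikaros fold enrichment there was 14.6 and 20.6 in the 0 h lists and 5.68 and 4.53 in the 1 h lists. The promoter of Gpt2 (alanine aminotransferase 2), at chr8:85491489-85493111, ranked 64.4 and 38.6 at 0 h and again 59.0 and 53.2 at 2 h, so its absence was limited to the 1 h lists. A region 18891 bp from the TSS of Ifitm3, an interferon-induced gene, ranked 58.2 and 50.2 at 0 h, 11.8 and 16.7 at 30 min, and was not called later. Of the 10 lost regions 7 were called in neither 2 h library and 8 had an Ikaros peak in at least 1 of the 0 h lists. Of all 910 lost regions 27.6% had such a peak, near the 28.0% of all regions, so these 10 do not stand for the class.

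**Figure D3:**
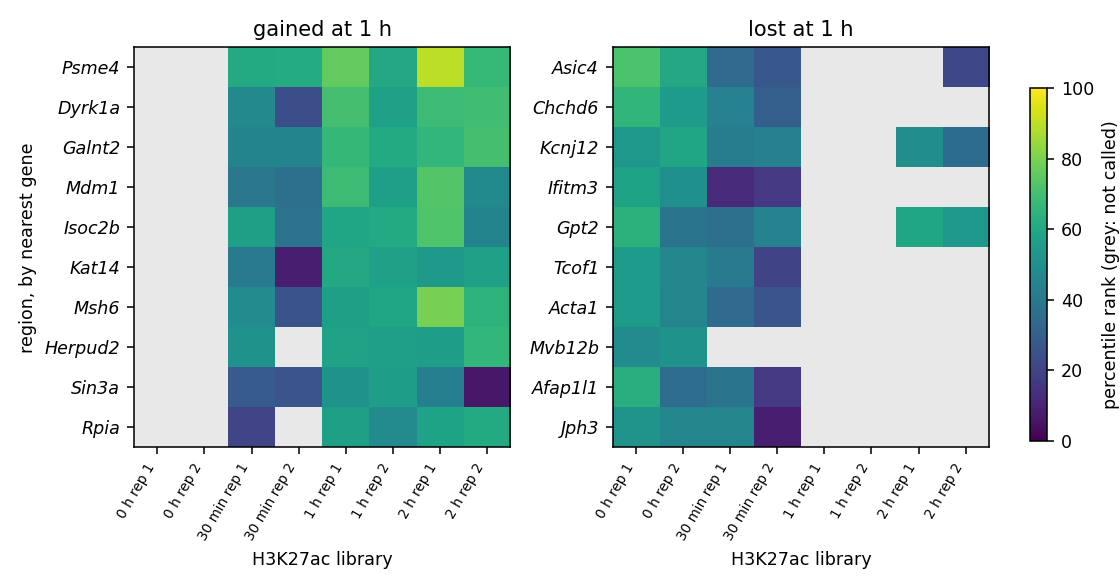
Percentile rank (colour, 0 to 100) of the 10 gained and 10 lost regions with the highest mean rank in each of the 8 H3K27ac libraries, with grey where the library had no peak. All 10 gained regions were called in both 2 h libraries, and 7 of the 10 lost regions in neither.

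Some genes were the nearest to several gained or lost regions. The genes named for this were chosen after their counts were seen, and many of them are nearest to a large number of regions, so the counts are a description only, beside 2.98% gained and 3.04% lost over all regions. Ebf1, which encodes a B-cell specification factor, was the nearest gene to 88 regions, of which 13 were gained (14.8%) and 0 lost. The 13 were all distal, spread from 37776 to 144710 bp from its TSS and 12 of them intronic. These Ebf1 regions were weak, with fold enrichments between 2.4 and 3.9 at 1 h replicate 1, whereas the Ebf1 promoter ranked 99.2 and 97.2 at 0 h and 98.0 and 97.3 at 1 h. The transcription factor genes Myb and Cux1 each had 7 gained regions, of 28 and 54 in all, and Tcf12 (an E protein gene) had 5 of 55. Cdk6, a G1 kinase gene, was nearest to 54 regions, 5 gained and 3 lost. Il7r, the interleukin 7 receptor gene, had 3 gained regions of 30. Pax7 had 6 lost regions of 17, and Zfp36l1, which encodes an RNA-binding protein that promotes mRNA decay, had 5 of 26. At Itga5 (the fibronectin receptor alpha chain) there were 3 lost regions and 0 gained of 6, and their ranks at 0 h lay between 1.23 and 26.4.

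Ikaros peaks were rare in gained regions, and lost regions held more of the Ikaros peaks of 0 h than of those of 1 h. A peak in both Ikaros lists of 1 h overlapped 23 gained regions (2.58%, interval 1.64 to 3.85), 79 lost regions (8.68%, 6.93 to 10.7) and 7383 kept regions (45.9%). The order of gained and lost turned when 0 h replicate 1 was left out, with 5.75% and 5.07%. It also turned for Ikaros new at 1 h, with 1.57% and 0.879%. Taken list by list, Ikaros of 0 h lay in 0.673% and 0.898% of the gained regions and Ikaros of 1 h in 4.26% and 6.96%. For lost regions the order was the reverse, with 17.8% and 24.4% in the 0 h lists and 12.4% and 15.5% in the 1 h lists. Over all regions the shares were 20.5% and 24.4% at 0 h and 31.4% and 36.4% at 1 h, so the 0 h shares of lost regions were at or below those of all regions. The 1 h lists were the longer ones, with 12447 and 14874 peaks against 7822 and 9527 at 0 h, and kept regions showed the same order as the gained ones (33.6% and 39.6% at 0 h, 52.9% and 59.9% at 1 h). Ikaros in both 0 h lists and neither 1 h list was found in 61 lost regions (6.70%), in 196 kept regions (1.22%) and in 387 of all regions (1.29%). It was found in 0 of 891 gained regions, for which the exact interval reaches 0.413%, while the limit of 3 counts that a count of 0 allows is a share of 0.337%. The Ikaros libraries had 3.59 and 3.13 fragments per base at 0 h and 2.52 and 2.23 at 1 h, and the part of this depth in the overlaps was not tested.

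The order of the 3 classes was the same at distal and at promoter regions. Among distal regions Ikaros of 1 h lay in 2.13% of the gained, 8.03% of the lost and 41.7% of the kept regions, and among promoter regions in 5.00%, 11.2% and 48.6%. CHD4 peaks, in both 1 h lists, overlapped 8 gained regions (0.898%), 7 lost regions (0.769%) and 17.2% of the kept regions. Gained and lost regions had lower ranks than kept regions, and the part of rank in the overlap was not tested.

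Kept regions were tested for a change in rank with limma, and no region passed. At an adjusted p under 0.05 (Benjamini-Hochberg over all 16076 kept regions) limma called 0 regions higher (0.0%) and 0 lower (0.0%) at 1 h, and the smallest adjusted p was 0.425. At an unadjusted p under 0.05 there were 1072 higher (6.67%) and 655 lower (4.07%). On log2 fold enrichment with quantile normalization limma also called 0, with 2168 at an unadjusted p under 0.05, and on log2 fold enrichment as deposited it called 3 higher and 118 lower. Data were also simulated with normal noise at the mean spread of regions of like rank. There 13.5% of regions moved by 20 rank points and 52.5% of those moved by 40 were called, so shifts of this size could be missed. Regions of like rank all had the same spread in the simulation, so these shares hold for that setting only. The median absolute difference between replicates was 7.2 rank points at 0 h and 7.45 at 1 h, and the median shift from 0 h to 1 h over all kept regions was 2.29 points. That shift was 0.319 points with lists cut to equal length and 0.684 by rank among the kept regions alone.

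Below the threshold, kept regions can be described by whether the groups overlapped. Both 1 h ranks lay above both 0 h ranks in 4724 regions (29.4%), termed higher, and below both in 2534 regions (15.8%), termed lower. Higher regions made up 65.1% of both classes together by rank within the whole list, 52.3% by rank among the kept regions alone (3894 and 3545) and 16.4% by fold as deposited (1042 and 5326), where the median log2 difference was −0.23. The balance between the classes thus depended on the scale. Regions and promoters called higher or lower below are so by rank unless the fold is named, and a named promoter whose folds overlapped between the times is given as such. Lower regions were wider, with a median of 2742 bp against 2040 bp, and less often promoters, with 54.4% against 64.6%. Ikaros peaks in both 1 h lists overlapped 58.0% of the lower and 41.4% of the higher regions, Ikaros in at least 1 of the 0 h lists 70.9% and 32.1%, and CHD4 23.1% and 15.1%.

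Kept regions were also grouped by when Ikaros was called. Lower regions made up the largest share where Ikaros was called at 0 h only and the smallest where it was new at 1 h or absent. Regions with Ikaros in both 0 h lists and neither 1 h list numbered 196, and 45.9% of them were lower and 8.16% higher. Of 5504 regions with Ikaros at both times (both 1 h lists and at least 1 of 0 h), 23.9% were lower and 22.0% higher. Of 1879 regions with Ikaros in both 1 h lists and in neither of 0 h, 8.09% were lower and 39.7% higher. The 4705 kept regions with no Ikaros peak in the 4 lists were close to the last set, with 8.31% lower and 35.3% higher. By fold as deposited the shares lower were 68.9%, 40.7%, 23.3% and 25.9% in the same order, so the order of the first 3 sets held on that scale while the balance within each moved. Regions with newly called Ikaros were thus not lower more often than those without Ikaros by rank.

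The same held for the mean rank of each library. In distal kept regions with Ikaros at 0 h only (122 regions), the mean rank was 62.0 and 53.4 at 0 h and 47.5 and 39.3 at 1 h, so both 1 h libraries lay below both 0 h libraries, with a mean difference of −14.3 points. In 1992 distal regions without Ikaros it was 40.9 and 33.1 at 0 h and 46.0 and 39.5 at 1 h, a difference of 5.71 points (5.11 in replicate 1 and 6.31 in replicate 2), and the libraries of the times overlapped. In 635 distal regions with new Ikaros it was 62.5 and 53.8 at 0 h and 67.8 and 63.1 at 1 h, a difference of 7.26 points with no overlap. The excess of new Ikaros over no Ikaros at distal regions differed between the times by 1.55 points only (0.211 in replicate 1 and 2.89 in replicate 2, exact permutation p = 0.3333). In 1964 distal regions with Ikaros at both times it was 72.3 and 67.1 at 0 h and 70.3 and 65.3 at 1 h. Promoters with Ikaros at 0 h only (74 regions) had 64.8 and 61.0 at 0 h and 59.3 and 54.0 at 1 h, a mean difference of −6.29 points. For the other promoters the mean difference was 0.0061 points with Ikaros at both times, 4.84 with new Ikaros and 5.09 with none. These differences are by rank within the whole list, and their direction depended on the scale. By fold as deposited, 23.3% of kept regions with new Ikaros were lower and 9.58% higher. With none the shares were 25.9% and 9.1%. Regions of 1 library share its depth and its list, so the regions are not replicates and the library is the unit of each test.

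Over all kept regions, the mean rank of those with Ikaros in both 1 h lists exceeded that of those without by 17.1 and 18.9 points at 0 h and by 14.6 and 16.3 points at 1 h. From 0 h to 1 h this excess differed by −2.56 points in replicate 1 and −2.57 in replicate 2, and an exact permutation test gave p = 0.3333, the smallest possible, with 0.5 after adjustment over 6 measures. At distal regions it differed by −2.77 points and at promoter regions by −2.53, with the same p of the exact test. When only regions with Ikaros new at 1 h were set against all others, the difference turned, with 3.77 points more at 1 h over all regions. Those others include the regions with Ikaros at 0 h, and against regions with no Ikaros peak in the 4 lists the value was 0.31 points, with −0.81 in replicate 1 and 1.43 in replicate 2. New Ikaros regions minus those with Ikaros at both times gave −6.86 and −8.97 points at 0 h and −1.87 and −1.30 points at 1 h. At 1 h the share of H3K27ac peaks at Ikaros regions was 29.3% and 32.3%, against 31.7% and 36.2% at 0 h (exact permutation p = 0.667), and the share at promoters was 45% and 47.5% against 47.7% and 51.4% (exact permutation p = 0.3333, adjusted 0.5). The mean differences were −3.19 and −3.28 points. With lists cut to equal length they were −0.703 and −0.652, so their size depended on list length.

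**Figure D4:**
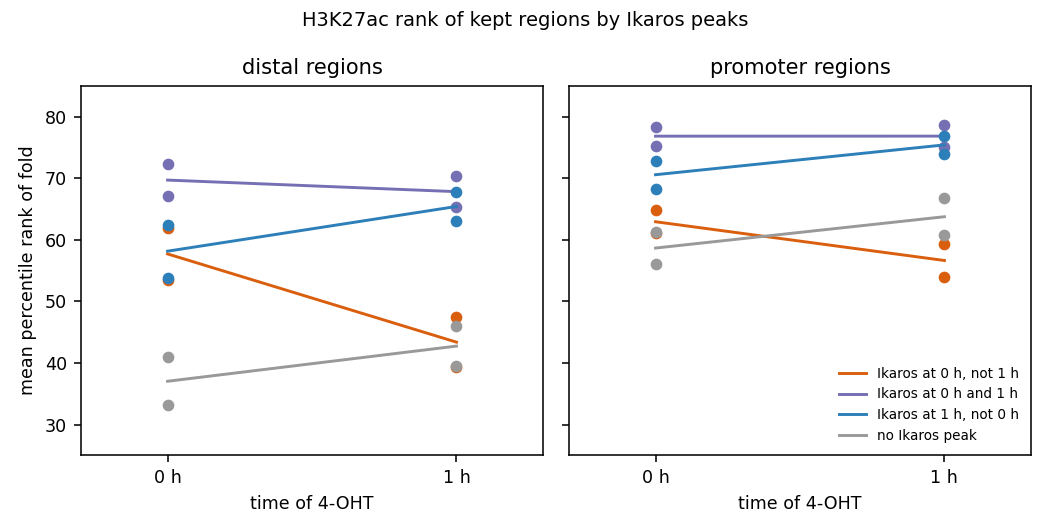
Mean percentile rank of H3K27ac (vertical axis) in each library (points, 2 per time) for kept regions grouped by their Ikaros peaks, distal regions on the left and promoter regions on the right, with lines joining the means of the 2 libraries. Distal regions with Ikaros at 0 h and not 1 h stand at 62.0 and 53.4 at 0 h and at 47.5 and 39.3 at 1 h. Regions with new Ikaros and with none stand higher at 1 h in the mean by rank within the whole list, a direction that depended on the scale.

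Kept regions with the largest differences were named by rule, 10 in each direction. The lowest at 1 h relative to 0 h was a region between genes, chr1:186405768-186410671, at a distance of 239319 bp from the Tgfb2 TSS, the gene for transforming growth factor beta 2. It ranked 75.2 and 71.0 at 0 h and 0.540 and 14.8 at 1 h, a difference of −65.5 (SE 9.5, limma adjusted p = 0.425). Ikaros fold enrichment there was 14.2 and 13.8 at 0 h and 4.38 and 4.23 at 1 h. The promoter of Rac2, a haematopoietic small GTPase gene, at chr15:78563451-78565348, ranked 71.5 and 74.2 at 0 h and 29.9 and 4.47 at 1 h. At Rac2 Ikaros was stronger in 1 of the 1 h lists, with fold 6.45 and 8.20 at 0 h and 13.4 and 6.70 at 1 h. Cradd (a death domain adaptor gene), with an intronic region, ranked 64.2 and 54.5 at 0 h and 0.167 and 6.40 at 1 h, and a region 37764 bp from the TSS of P2ry2, a nucleotide receptor gene, ranked 72.9 and 76.5 at 0 h and 47.0 and 0.749 at 1 h. Of these 10 lower regions, 9 had Ikaros in at least 1 of the 0 h lists, and the Retsat promoter had none. Such a peak lay in 45.1% of all kept regions and 70.9% of all lower ones. None of the 10 was called lower by limma after adjustment.

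In the other direction, the Smad3 promoter, the gene of a transducer of TGF-beta signals, ranked 18 and 10.9 at 0 h and 65.7 and 77.3 at 1 h, a difference of 57.0 (SE 9.18, limma adjusted p = 0.425). Ikaros was called there with fold 9.93 and 10.5 at 1 h and by only 1 library at 0 h, with 5.92. The Ublcp1 promoter ranked 48.5 and 3.44 at 0 h and 87.3 and 77.2 at 1 h. The Cmss1 promoter ranked 59.3 and 32.3 at 0 h and 93.4 and 89.0 at 1 h with no Ikaros peak. A region 61233 bp from Cdkn2b, a cyclin-dependent kinase inhibitor gene, ranked 14 and 13.3 at 0 h and 69.0 and 52.6 at 1 h. Of these 10 higher regions 4 had Ikaros in both 1 h lists and 2 had it in a 0 h list. Ikaros in both 1 h lists lay in 45.9% of all kept and 41.4% of all higher regions, so the 4 were near the general share. For at least 1 of the 0 h lists the shares were 45.1% and 32.1%. At the summit of the Smad3 region the local background was 9.96 and 10.3 fragments at 0 h and 6.86 and 4.19 at 1 h, with 41 and 40 fragments at 0 h and 75 and 55 at 1 h, so the fragments were more and the background less at 1 h, and the part of the background in the difference was not tested. For Tgfb2 the background was 4.30 fragments at 0 h replicate 2, against 8.23 and 5.58 at 1 h.

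Promoters of genes on a list of fast-repressed genes mostly had lower H3K27ac ranks after 4-OHT. The study took these genes from nascent RNA of the same cell system. It also names most of the promoters counted here (Igll1, Ccnd2, Endod1, Bcl11a, Gfra2, Ramp1, Serpinf1, Gins2 and Hs3st3b1) for super-enhancers, large clusters of enhancers, at which it called less H3K27ac early after 4-OHT, with the 0 h libraries used here as the reference. The counts below therefore describe genes that were in large part picked for lower H3K27ac, and nothing is read from their distance to the share of all promoters. Of the 18 named ones, 14 had a promoter region in all 4 libraries, and 11 of the 14 were lower (78.6%) and 0 higher, with a median difference of −11.6 rank points. Over all protein-coding genes 9397 promoters were kept, of which 12.9% were lower and 31.7% higher, with a median of 2.45. Igll1 and Vpreb1 share 1 region, so the 11 genes stand on 10 of 13 separate regions. By fold as deposited 12 of the 14 were lower, against 29.6% of all promoters. Ikaros of both 1 h lists lay on 12 of the 14 promoters (85.7%), beside 49.9% of all kept promoters of protein-coding genes.

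Serpinf1, which encodes a secreted serpin, had ranks of 98.8 and 94.4 at 0 h and 76.3 and 41.4 at 1 h, a difference of −37.7 (SE 11.4, limma adjusted p = 0.425). For Gfra2, a co-receptor gene of the GDNF family, they were 97.0 and 96.7 at 0 h and 66.6 and 61.3 at 1 h. Ramp1, which encodes a partner of the calcitonin-like receptor, had 55.0 and 54.1 at 0 h and 31.2 and 21.3 at 1 h, without an Ikaros peak at the promoter. For Myc, the driver of cell growth, they were 77.7 and 89.4 at 0 h and 75.9 and 58.9 at 1 h, so the groups were separate by a small gap. The D-type cyclin gene Ccnd2 had 79.0 and 82.9 at 0 h and 70.7 and 62.0 at 1 h. The shared promoter region of the surrogate light chain genes Igll1 and Vpreb1 lay near the ceiling of the ranks, with 100.0 and 97.8 at 0 h and 95.7 and 96.8 at 1 h, and its fold enrichment was 57.9 and 29.5 at 0 h and 27.5 and 20.9 at 1 h. Dntt, the terminal transferase gene, had 79.3 and 62.1 at 0 h and 70.7 and 47.9 at 1 h, which overlapped. Lost regions lay within 20 kb of 3 of the 16 named genes with any region there (Ccnd1 with 2, Itga5 with 3 and Plekho2 with 1), and gained regions of 0, beside 5.42% and 5.70% of all protein-coding genes with such a region. At Ccnd1 both lost regions were at the promoter, at chr7:144938928-144939696 with ranks 17.7 and 11.8 and at chr7:144940039-144940721 with ranks 43.8 and 44.9, and neither was called at 2 h.

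**Figure D5:**
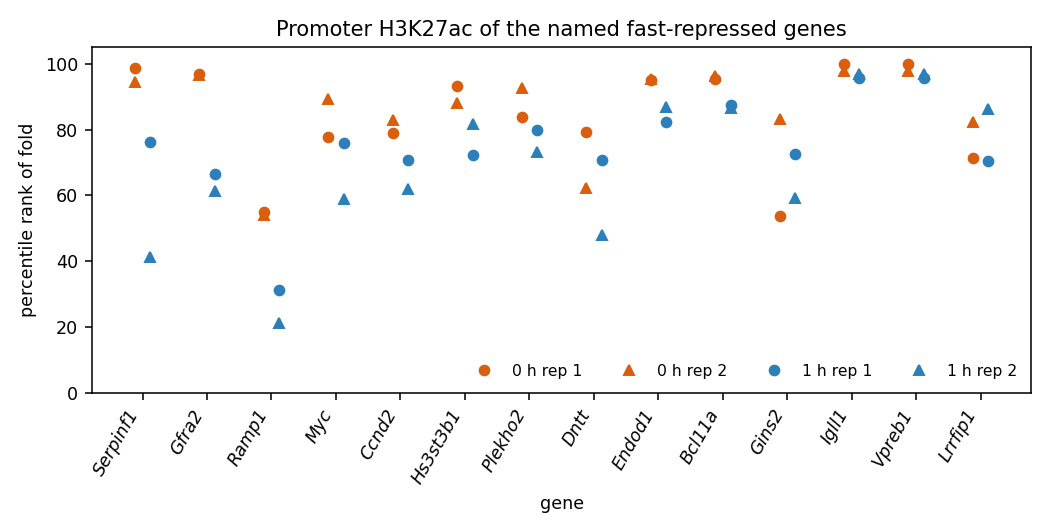
Percentile rank of the promoter H3K27ac region (vertical axis) of the 14 named fast-repressed genes with a region in all 4 libraries, each point being 1 library. For 11 genes both 1 h points (blue) lie below both 0 h points (orange), with the widest gaps at Serpinf1, Gfra2 and Ramp1, and those of Dntt, Gins2 and Lrrfip1 overlap.

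A second list holds genes that were repressed fast and were also higher in leukaemia with the dominant-negative Ikaros isoform Ik6, chosen by the study from RNA. It has 101 genes, 7 of them also in the first list, so its direction is not independent evidence. Of its 59 kept promoters 34 were lower (57.6%, beside 12.9% of all promoters) and 5 higher (8.47%, beside 31.7%), with a median difference of −8.38. Some genes share a region, so the 34 stand on 33 of 58 separate regions. By fold as deposited 41 were lower (69.5%, beside 29.6%). Of 88 genes with a region within 20 kb, 14 had a lost region and 4 a gained one. Over all 12987 protein-coding genes with such a region, 5.42% had a lost and 5.70% a gained one. Plxnd1, a semaphorin receptor gene, had ranks of 69.5 and 76.0 at 0 h and 45.2 and 11.3 at 1 h.

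Gained regions lay near several B-lineage transcription factor genes. Of 24 of these genes with a region within 20 kb, 7 had at least 1 gained region (29.2%, beside 5.70% of all protein-coding genes). These were Tcf12 and Myb with 3, Ikzf1, Ets1 and Pou2af1 with 2, and Gfi1 and Zeb2 with 1. Lost regions lay near 2, Tcf3 and Runx1. These genes have many regions around them (30 for Tcf12, 17 for Ets1 and Runx1), and the part of that number in the count was not tested. At their promoters, 6 of 18 were lower (33.3%, beside 12.9% of all promoters) and 3 higher (16.7%, beside 31.7%) by rank, and 11 lower (61.1%, beside 29.6%) and 0 higher (beside 4.4%) by fold as deposited. For Lef1, a Wnt pathway factor, ranks were 94.3 and 94.4 at 0 h and 74.9 and 79.9 at 1 h. Those of Bach2, a repressor that guards the pre-B cell stage, were 97.1 and 93.4 at 0 h and 78.0 and 81.6 at 1 h, and Ets1 had 84.4 and 94.6 against 72.0 and 77.4. Bcl11a, needed for early B cells, had 95.5 and 96.4 against 87.4 and 86.5. The promoters of Ebf1, Pax5, Myb and Pou2af1 overlapped between the times, all with ranks over 88.

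The other lists held lower and higher promoters side by side. Each count below stands beside 12.9% lower and 31.7% higher promoters by rank over all protein-coding genes, and 29.6% lower and 4.4% higher by fold as deposited. In pre-B cell receptor signalling 3 of 18 promoters were lower (16.7%) and 2 higher (11.1%) by rank, and 7 lower (38.9%) and 0 higher by fold as deposited. Syk, the kinase at the start of that pathway, had ranks of 83.0 and 69.5 at 0 h and 97.4 and 88.9 at 1 h, and 1 gained region nearby. The Src family kinase gene Fyn had 95.6 and 90.2 at 0 h and 55.5 and 75.2 at 1 h, whereas its relative Blk had 69.3 and 59.3 against 74.9 and 76.8. By fold both higher ones overlapped between the times, with 18.2 and 11.8 against 31.4 and 14.1 for Syk and 12.6 and 9.44 against 12.1 and 9.99 for Blk. In IL-7 receptor and STAT5 signalling 2 of 11 were lower (18.2%) and 1 higher (9.09%) by rank, and 3 lower (27.3%) and 0 higher by fold as deposited. There the receptor chain gene Il2rg had 27.5 and 28.3 at 0 h and 43.6 and 40.3 at 1 h (folds of 4.41 and 4.76 against 5.14 and 4.55, which overlapped), and Stat5a, the transcription factor downstream, had 63.8 and 68.3 against 50.5 and 55.4. The lower shares by rank were near that of all promoters in both signalling lists.

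Among G1 cell cycle genes 7 of 19 promoters were lower (36.8%, beside 12.9% of all promoters) and 6 higher (31.6%, beside 31.7%) by rank, and 10 lower (52.6%) and 1 higher (5.26%) by fold as deposited. By rank the lower ones included the cyclin genes Ccnd2 and Ccnd3 and the kinase genes Cdk4 and Cdk6, while E2f1, a factor that starts S phase genes, had 74.3 and 58.5 at 0 h and 86.4 and 93.5 at 1 h. Of 14 adhesion and integrin genes 5 were lower (35.7%) and 2 higher (14.3%) by rank, and 5 lower and 0 higher by fold as deposited. The integrin gene Itgal had 68.1 and 71.6 at 0 h and 56.9 and 22.9 at 1 h, and Pxn, the focal adhesion gene of paxillin, had 97.0 and 92.1 against 75.7 and 84.7. Icam1, a ligand of that integrin, had 34.4 and 62.9 at 0 h and 82.9 and 73.9 at 1 h, though its folds overlapped (5.12 and 10.1 against 15.5 and 9.27). Of 17 immediate early genes 5 were lower (29.4%) and 5 higher (29.4%) by rank, the latter near the 31.7% of all promoters, and 10 were lower (58.8%) and 1 higher (5.88%) by fold as deposited. Fos had 38.7 and 30.2 at 0 h and 63.1 and 70.1 at 1 h, a difference of 32.1 (SE 8.49, limma adjusted p = 0.425), and the nuclear receptor gene Nr4a1 had 34.9 and 35.6 against 26.3 and 4.47.

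Sterol genes had 0 of 16 promoters lower and 5 higher (31.2%) by rank (Mvd, Mvk, Dhcr7, Sc5d and Srebf2), the latter near the 31.7% of all promoters, and 3 lower (18.8%) and 1 higher by fold as deposited. Mvk, the mevalonate kinase gene, had 58.7 and 75.7 at 0 h and 84.3 and 88.5 at 1 h. Its folds were also separate (9.48 and 13.6 against 16.3 and 14), whereas those of Mvd, Dhcr7, Sc5d and Srebf2 overlapped. Of the NuRD complex genes 3 of 13 were lower (23.1%) and 4 higher (30.8%) by rank, and 5 lower (38.5%) and 1 higher by fold as deposited. Mta3, a subunit gene, had 82.3 and 79.2 at 0 h and 63.9 and 59.1 at 1 h. Among genes for writers, readers and erasers of H3K27ac 2 of 11 promoters were lower (18.2%) and 1 higher (9.09%) by rank, and 4 lower (36.4%) and 0 higher by fold as deposited. The acetyltransferase gene Kat2b had 77.9 and 72.6 at 0 h and 50.6 and 41.4 at 1 h, and Sin3a had 92.8 and 91.0 against 77.5 and 84.2 at its kept promoter region. Gained regions lay near 4 of the 13 (among them Crebbp with 2, and Hdac7 and Sin3a with 1) and a lost region near Brd2, beside 5.70% of all protein-coding genes for gained and 5.42% for lost regions. Cytosolic ribosomal protein genes had 0 of 24 lower and 8 higher by rank, close to the 31.7% higher of all promoters, and 2 lower and 1 higher by fold as deposited.

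The letters under the H3K27ac summits were compared between the classes. In windows of 201 bases around the summit at distal regions, the core word GGGAA, on either strand, was found in 39.7% of the gained, 49.3% of the lost, 49.6% of the kept and 46.6% of all regions. At promoter regions the lost class stood higher, with the word in 42.9% of the gained, 60.1% of the lost, 51.3% of the kept and 50.8% of all regions, and the longer word TGGGAA, which contains it, in 17.9%, 29.3%, 15.5% and 16.5%. At distal regions the longer word was in 19.3%, 20.6%, 20.6% and 19.8% in the same order. For comparison, 61.8% of windows around the 12447 Ikaros summits of 1 h replicate 1 held the core word GGGAA. The KLF word GGGNGTG was found in 8.12% of the gained, 15.9% of the lost and 11.1% of all distal regions, and the E-box word CAGCTG in 9.45%, 14.4% and 11.3%. The forkhead word TGTTTAC was in 1.86% of the gained, 4.57% of the lost and 2.98% of all distal regions. The Runt word TGTGGT, at 16.4%, 15.5% and 15.8%, and the AP-1 word TGANTCA, at 6.92%, 6.93% and 6.37%, were near the level of all distal regions in both classes. The median GC content of the windows was 44.3% for gained, 48.8% for lost and 46.8% for all distal regions, and 16.5%, 9.97% and 11.9% of the windows were repeats over more than 50% of their length, so base composition moved with the words and its part was not tested. At promoters the median GC content was 47.3% for gained, 53.2% for lost, 60.7% for kept and 58.2% for all regions. Each word was searched on both strands, and a match describes the letters only.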

How the data were processed

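The regions, classes and gene lists were chosen with earlier results of these data known. ChIP-seq of H3K27ac, HA-Ikaros and CHD4 was read from peak lists, 1 for each library. The authors aligned read pairs to mm10 with Bowtie2 (version 2.4.2), marked duplicates with Picard (2.23.7) and called peaks with MACS2 (2.2.7.1), in narrow mode for H3K27ac and HA-Ikaros and broad mode for CHD4. Which input each list used, the settings for 30 min and whether a blacklist was applied in peak calling are not given in the sources used here. For each peak, the deposited lists hold a fold enrichment (a ratio to the local background), −log10 p, −log10 q and a display score. The fold was used here for ranks, the −log10 p with the fold to recover depth, and the −log10 q in an alternative. The score was not used. The lists hold no counts of reads, so the DESeq2 test of the authors could not be repeated and ranks were tested instead.

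Peaks of the 4 H3K27ac lists that overlapped by at least 1 bp were merged into regions, and a region took the highest fold of each list. Ranks are percentiles within a list. Depth came from solving the fold and the −log10 p of each peak (tolerance 0.002, −log10 p under 40) for the fragments at the summit, which gave a whole count for 99.98% to 99.99% of the H3K27ac peaks under that limit and none for stronger peaks. Greater depth lets weaker regions pass the threshold. Genes and TSSs were from GENCODE M21, and sequences from GRCm38.p6 (RefSeq). A region was named by the nearest TSS, protein-coding genes first. Of the named regions, 10 gained and 10 lost had the highest mean rank, and 10 kept in each direction had the largest rank difference without overlap of the groups. List genes were named when a gained or lost region lay within 20 kb, or for the largest promoter differences, and others were chosen after their values were seen.

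Ranks of kept regions were compared with limma (3.58.1, trend, no block), which was tested on simulated data, and values per library with exact permutation tests, in Python 3.11.15 with numpy 2.4.6, pandas 2.3.3, scipy 1.17.1, pysam 0.24.0 and matplotlib 3.10.9. Alternatives were another threshold, scale, overlap, definition of Ikaros regions, stitching of peaks, a replicate block and each library left out. The 8 input libraries were not analysed here, and some genes and sequences are not reported here.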

Additional observations from a re-analysis of the deposited data

How the results depend on the processing

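Of 174 recalculated values, 130 were labelled the same, 41 moved and 3 reversed, and the cause was not tested. For differences given with an exact permutation test, the same label asks only for an unchanged sign. Some of these changed much in size, such as the difference in peaks per library, 2176 as reported and 362.5 without 0 h replicate 2. Counts of gained and lost regions followed the threshold and the list length. Gained regions numbered 557 at a −log10 q of at least 3 (lost 827), 491 with lists cut to equal length (lost 1100) and 520 with peaks within 1000 bp stitched (lost 672), so the gap between the 2 counts was wider in all 3. With 1 library left out they ranged from 1099 to 4579, and lost regions from 1155 to 3353, since 1 library then defines a group. Gained regions numbered 1651 without 0 h replicate 1, 3394 without 1 h replicate 1 and 4579 without 1 h replicate 2, and lost regions 1834, 3353 and 2234 without 0 h replicate 1, 0 h replicate 2 and 1 h replicate 1. On the deposited log2 fold enrichment limma called 3 kept regions higher and 118 lower, against 0 and 0 by rank.

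The mean share of gained regions called at 2 h (70.6%) ranged from 45.7% to 74.5% with a library left out. That of lost regions (20.4%) was 29.1% at the q threshold, 25.3% at a fold of at least 3, 31.3% with equal lists and 55.1% in the 30 min libraries, and ranged from 21.5% to 43.7% with a library left out. The share of gained regions with Ikaros (2.58%) was 5.21% at the q threshold, 4.02% at the fold threshold, 4.48% with equal lists, 1.52% with an overlap of at least 50%, 4.23% with stitching, 8.64% with Ikaros in at least 1 list and 1.57% with Ikaros new at 1 h, and ranged from 1.18% to 5.75% with a library left out. For lost regions (8.68%) the values were 6.05% with the 50% overlap, 19.2% with at least 1 list and 0.879% with new Ikaros, and the range was 4.24% to 11.6%. With Ikaros new at 1 h the rank difference reversed, to 3.77 points over all, 5.90 at distal and 2.61 at promoter kept regions.

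The scales and left-out libraries for the groups that did not overlap were added after seeing the data. On the deposited log2 fold, 1042 kept regions were higher and 5326 lower. With 1 library left out, 5905 to 8372 were higher and 3565 to 5759 lower, with 7924 and 8372 higher without 0 h replicate 1 and 1 h replicate 2, and 5084 and 5759 lower without 0 h replicate 2 and 1 h replicate 1. The count of lower promoters was 11 to 12 for the named fast-repressed genes and 34 to 43 for the longer list.

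Over kept regions, rank deviations of same-numbered libraries correlated at 0.0413, so region ranks showed little pairing by replicate number. Whole lists did follow the number, with more peaks in replicate 1 at both times (25095 against 21468, and 27214 against 23701). From 0 h to 1 h the lists differed by 2119 peaks in replicate 1 and 2233 in replicate 2, which the unpaired exact test does not use. With a replicate block limma called 0 higher and 0 lower, and 2040 regions at an unadjusted p under 0.05 against 1727 without the block. The part of depth in the Ikaros overlaps was not tested.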
